A study of Mus musculus with 10 samples.

Results

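The comparison set 2 glucocorticoids known by code names, VSG22 and VSGC12, against 2 glucocorticoids in clinical use, dexamethasone (Dex) and fluticasone furoate (FF). RNA came from RAW264.7 cells, an established mouse macrophage-like line, and was measured on 1-colour Agilent arrays. The members were chosen by treatment label and not by any measured value: the 4 arrays labelled VSG22 or VSGC12 (the VSG arrays) and the 4 labelled Dex or FF (the clinical arrays), 8 of the 10 arrays in all. Each glucocorticoid was given at 100 nM, 1 hour ahead of 1 µg/ml lipopolysaccharide (LPS, which coats Gram-negative bacteria and triggers inflammatory signalling), and cells were collected for RNA at 16 hours. Each of the 4 compounds has 2 arrays, 1 on each of 2 slides. The 2 remaining arrays hold cells given ethanol (EtoH), the solvent, and the labels do not say whether those cells received LPS. All groups share the cell line. Nothing states that replicates came from separate cultures, so p-values measure the spread between these arrays, which may be technical. All compounds were tested at 1 dose and 1 time, so the values carry no information on potency.

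Glucocorticoids bind the glucocorticoid receptor, encoded by Nr3c1, which then enters the nucleus and acts on genes in opposing ways. It switches on genes such as Fkbp5, whose product feeds back on the receptor, and it lowers the output of inflammatory genes driven by NF-kB, AP-1 and interferon signalling. In macrophages activated by LPS it thereby lowers cytokine production, and it raises acute-phase genes such as Hp, which encodes the haemoglobin-binding protein haptoglobin.

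Values are log2 signals relative to the 75th percentile of the same array, here called levels, and a difference is the mean of the VSG arrays minus the mean of the clinical arrays. Between 40.1% and 44.4% of spots were well above background, 0 were saturated, and the number of arrays limits the precision. Replicate arrays correlated across genes with r = 0.982 for Dex and 0.993 to 0.995 for the other groups, and genes are not independent replicates. The Dex arrays stood apart: 7.48% of genes differed over 2-fold between them, against 1.86% for VSG22, 2.24% for FF and 3.08% for VSGC12, and Dex replicate 2 was the higher in 1102 of those 1318 genes. On the first principal component, which held 39.4% of the variance, Dex replicate 2 lay at 60.5, Dex replicate 1 at -1.5, both VSG22 arrays at -29.1 and -27.7, and the remaining arrays between -16 and 13.4. Values without Dex are therefore given beside the main results. A patch is a stretch of an array where, of the 24 neighbours of a spot, 3 or more passed the background test in that array's group alone. The signal of the spot itself does not enter, and spots inside a patch may be sound. Patches held 3.91% and 5.44% of spots on the Dex arrays, 1.7% and 1.88% on the FF arrays and 0.42% to 0.75% elsewhere. All 21 macrophage identity genes on the array were well above background on each of the 8 arrays. Of the markers of other cells on the array, 4 of 8 for T cells, 1 of 8 for B cells, 1 of 9 for fibroblasts, 0 of 8 for epithelium and 4 of 11 for neutrophils and mast cells were so as well. The T cell genes Cd3e, Cd4, Lck and Il7r were above background and Cd3d, Cd8a and Zap70 were not on any array. The part of such cells or signals in the results was not tested.

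No single gene separated the VSG from the clinical arrays at the threshold, and for most genes the interval between these arrays was narrow. Of 17720 genes tested, 0 were called (0%; limma with class and slide as terms, Benjamini-Hochberg adjusted p under 0.05), and the lowest adjusted p was 0.48. At an unadjusted p under 0.05 there were 1848 genes (10.4%), 1170 higher and 678 lower in the VSG arrays. The 95% interval of the difference lay within 2-fold either way for 15707 genes (88.6%) and within 1.5-fold for 13327 (75.2%). The fit takes the 2 arrays of a compound as independent, and each class holds 2 compounds. The intervals therefore cover these arrays and do not bound a difference between classes of compounds. With compound as a random block, the correlation within a compound was 0.26, and 6.15% of genes had an unadjusted p under 0.05 by limma. The median difference over all genes was 0.03. Of the 17720 genes, 10378 were higher and 7342 lower in the VSG arrays, the numbers to set beside the counts of each list below. Differences over 2-fold were found for 387 genes (2.18%), 44 higher (0.248%) and 343 lower (1.94%).

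In 604 of 17561 genes with all values (3.44%) the 4 VSG arrays all lay above the 4 clinical arrays, and in 312 (1.78%) all lay below, 5.22% together. Against FF alone these shares were 10.4% and 8.02%, and against Dex alone 17.5% and 10.5%; fewer arrays separate more easily. The median difference was 0.23 among the former and -0.47 among the latter. Without genes that have a probe in a patch, the shares were 3.47% and 1.66%. When arrays were scaled by their median in place of the 75th percentile, the counts were 154 and 108. The EtoH mean lay below both class means in 319 of the 604 genes and above both in 178. Among the 312 it lay below both in 118 and above both in 100. With Dex and FF left out in turn, 2 genes (0.0113%) were called for VSG against FF and 32 (0.181%) for VSG against Dex. The 2 called against FF are unnamed probes inside a patch that is not on Dex. On the VSG arrays both lay at -6.38 to -5.74, below the dimmest probe that passed the background test on each array. They entered the test through FF, and their direction was set by that. For 20 of the 32 called against Dex the probe was inside a Dex patch. Of those 32, 6 were higher and 26 lower in the VSG arrays. For 24 of the 26 the probe was well above background on 0 of the 4 VSG arrays, so they entered the test through the clinical arrays and their direction was set by that. Compared with EtoH, in a fit of all 10 arrays, 7262 genes (41%) were called for the mean of the VSG compounds and 7965 (45%) for the mean of the clinical compounds. These share the EtoH arrays.

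As a list, classical receptor targets had a median difference near 0, with members in both directions, and the acute-phase gene Hp was higher in the VSG arrays. Of 28 measured genes known to be induced by the receptor, 0 were called, 15 were higher and 13 lower. The median difference was 0.00 (0.03 over all genes), and members ran from -0.73 to 0.77. Fkbp5, the receptor co-chaperone that is itself a receptor target, stood at 5.16 and 4.92 under VSG22, 5.25 and 5.07 under VSGC12, 5.21 and 4.99 under FF, 4.42 and 4.59 under Dex, and 2.92 and 2.80 in EtoH. Only the Dex arrays were low, and both VSG compounds overlapped FF. Its difference was 0.30 ± 0.18 (SE, 4 arrays against 4, adjusted p = 0.54 by limma), 0.00 without Dex and 0.60 without FF. Tsc22d3, the gene of the glucocorticoid-induced leucine zipper, differed by 0.01 with a 95% interval of -0.15 to 0.17. Per1, a clock gene, differed by 0.01 (-0.23 to 0.25), Klf9, a transcription factor gene, by 0.12 (-0.05 to 0.30), and Dusp1, a phosphatase gene that limits MAP kinase signalling, by 0.06 (-0.29 to 0.41). Nr3c1 itself differed by 0.04 (-0.13 to 0.21).

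Set against EtoH, Fkbp5 was raised by 2.23 under the VSG mean and 1.94 under the clinical mean, and Hp by 5.39 and 4.56. Per1, from the same receptor-induced list as Fkbp5, was called lower than EtoH in both, with differences of -0.40 and -0.40 (adjusted p = 0.0379 and 0.0334). Il33 differed by -5.27 and -4.44, Il1b by -2.26 and -1.98, Nos2 by -1.58 and -1.45, Il6 by -0.68 and -0.50 and Tnf by -0.41 and -0.20, all called (limma, adjusted p at most 0.0476). Tsc22d3 (0.11 and 0.10), Dusp1 (0.06 and 0.00), Klf9 (0.19 and 0.07) and Nr3c1 (-0.15 and -0.19) were not called in either. Zfp36 was called for the clinical mean (0.89, adjusted p = 0.0442) and not for the VSG mean (0.16), and the classes are compared in the next paragraph. The EtoH arrays are shared, and whether they had LPS is not stated.

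In the receptor-induced list 2 of 28 genes were higher and 1 lower without overlap, against 3.44% and 1.78% of all genes. Glul, for glutamine synthetase, lay at 1.00 to 1.28 in the VSG arrays and 0.65 to 0.93 in the clinical arrays, though its probe is inside a patch. Tgm2, for transglutaminase 2, lay at 2.90 to 3.11 against 2.57 to 2.88. Mt1, the metallothionein gene, lay lower, at 8.88 to 9.16 against 9.18 to 9.46, also with a probe in a patch. Zfp36, which encodes the mRNA-decay factor tristetraprolin, had levels of 3.09 to 3.70 in the VSG arrays, 3.80 and 3.39 under FF, and 4.13 and 5.08 under Dex. Its difference of -0.73 ± 0.36 (adjusted p = 0.49) became -0.22 without Dex.

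Hp (probe at chromosome 8, 112099045 to 112099104, mm9) had levels of 2.77 and 2.56 under VSG22, 2.81 and 2.62 under VSGC12, 2.33 and 2.31 under FF, 1.38 and 1.41 under Dex, and -2.73 and -2.68 in EtoH. The 4 VSG arrays all lay above FF, and FF above Dex, with no overlap. The class difference was 0.83 ± 0.26 (1.78-fold, adjusted p = 0.48 by limma). It was 0.37 against FF alone and 1.30 against Dex alone, and the latter was the one list member called when FF was left out (adjusted p = 0.032). VSGC12 minus VSG22 was 0.05 with a 95% interval of -0.20 to 0.30. Cp, for the copper-carrying plasma protein ceruloplasmin, lay at 5.48 to 5.74 in the VSG arrays and 5.16 to 5.46 in the clinical arrays. Serpina3f, a serine protease inhibitor gene, lay at -2.25 to -1.69 against -3.14 to -2.42. Without Dex the differences of Cp and Serpina3f, 0.25 and 0.78, were 0.14 and 0.47. These 3 genes were the ones without overlap among 15 measured acute-phase and complement genes (3.44% of all genes in that direction), of which 9 were higher, and the list's median difference was 0.07.

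5 further genes were called higher than Dex once FF was left out, and were named after their values were seen. Gm3430 stood at 3.11 to 3.27 in the VSG arrays, 3.14 and 3.0 under FF, 2.22 and 2.34 under Dex, and -0.20 and -0.17 in EtoH (VSG minus Dex 0.88 ± 0.07, adjusted p = 0.045). Gm4499 had the same order, at 2.65 to 2.76, 2.47 and 2.65, 1.69 and 1.80, and -0.73 and -0.60 (0.95 ± 0.08, adjusted p = 0.045). Gm1976 (1.18), Gm3559 (1.46) and Cbln2 (1.49) were higher than Dex with EtoH means nearer to the VSG than to the Dex mean. Under Dex, Gm3559 stood at -4.68 and -4.35 and Cbln2 at -4.40 and -3.62. The dimmest probes that passed the background test on the Dex arrays were at -3.51 and -4.01. Gm3559 on both Dex arrays and Cbln2 on Dex replicate 1 were below these. Both genes entered the test through other arrays, so their direction was set in part by that and their differences are approximate. FF lay within the VSG range for Gm1976 and Cbln2 and below it for Gm3559.

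**Figure D1:**
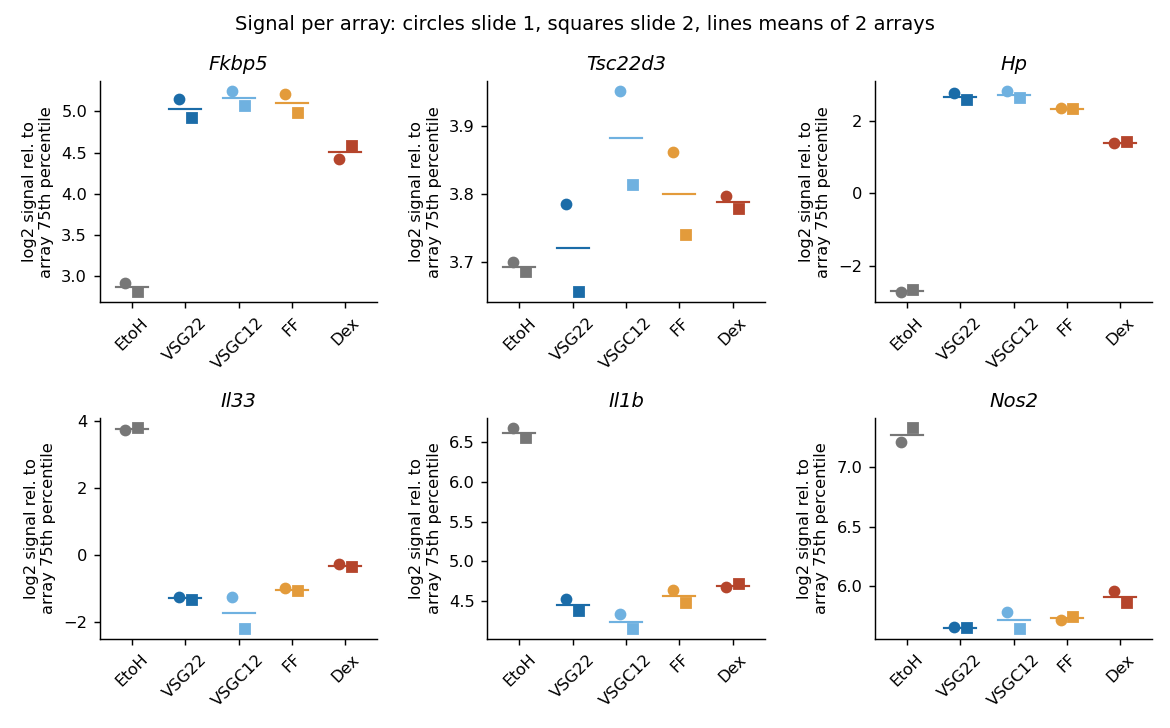
Level of 6 genes on each of the 10 arrays (y axis, log2 signal relative to the array's 75th percentile), by treatment. Circles are slide 1, squares slide 2 and lines the means of 2 arrays. Hp is highest under the VSG compounds, at 2.56 to 2.81, and lowest among the compounds under Dex, at 1.38 and 1.41, while the VSG and FF arrays overlap for Fkbp5.

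Cytokine genes were slightly lower in the VSG arrays, the direction in which the compounds differ from EtoH for the cytokines given in the next sentences. Of 19 measured pro-inflammatory cytokine and cytokine-family genes, 0 were called, 17 were lower and 2 higher, and the median difference was -0.13 (0.03 over all genes). Without FF the median was -0.20. For 8 of the 19 the probe is inside a patch, whose part was not tested. Il33 (chromosome 19, 30035101 to 30035160, mm9), an alarmin of the interleukin-1 family, stood at -1.24 and -1.35 under VSG22, -1.24 and -2.20 under VSGC12, -0.98 and -1.08 under FF, -0.28 and -0.37 under Dex, and 3.73 and 3.80 in EtoH. The VSG arrays were the lowest and did not overlap the clinical arrays. The difference was -0.83 ± 0.27 (1.78-fold lower, adjusted p = 0.48 by limma), -0.48 against FF alone and -1.18 against Dex alone.

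Il10, for the anti-inflammatory cytokine interleukin-10, stood at 1.70 to 1.85 in the VSG arrays, 1.97 and 1.96 under FF, 2.37 and 2.24 under Dex, and 2.53 and 2.52 in EtoH. Il1a, for interleukin-1 alpha, lay at 0.51 to 0.75 against 0.84 to 1.26, with EtoH at 2.02 and 2.19. Both probes are inside a patch. Vegfa, for the vascular growth factor, lay at 1.17 to 1.33 against 1.37 to 1.52. With Il33 these 3 were the genes without overlap in the list, 4 of 19 against 1.78% of all genes in that direction. Without Dex the differences of Il10 and Il1a, -0.40 and -0.41, were -0.23 and -0.24. Il1b, for interleukin-1 beta, differed by -0.28 (-0.49 to -0.07) with overlapping arrays, and Tnf differed by -0.21 (-0.45 to 0.02). Both of these probes also lie in a patch. Il6 differed by -0.18 (-0.46 to 0.11), and by 0.00 without Dex. Nos2, for inducible nitric oxide synthase, differed by -0.14 (-0.32 to 0.04) in levels of 5.64 to 5.96 on all 8 arrays, against 7.21 and 7.33 in EtoH. Timp1, a metalloproteinase inhibitor gene, stood at 0.11 to 0.52 in the VSG arrays, 0.63 to 0.86 in the clinical arrays and 2.80 to 2.88 in EtoH.

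In the interferon list the median was lower in the VSG arrays against Dex and near 0 against FF. Of 47 measured genes, 34 were lower and 13 higher, 0 were without overlap, and the median difference was -0.08, which was 0.00 without Dex and -0.23 without FF. Mx1, an antiviral GTPase gene, differed by 0.14 from FF and by -1.21 from Dex. Rsad2, for the antiviral protein viperin, differed by -0.02 and -0.78, and Gbp2, a guanylate-binding protein gene, by -0.48 and -0.93. Among 15 chemokine genes 12 were lower (median -0.08), with Ccl12, a monocyte attractant gene, at -0.27 from FF and -1.37 from Dex. None of these was called in the class comparison.

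Genes of cell division were higher in the VSG arrays as a list, by amounts that followed the order VSG22, VSGC12 and FF, Dex. These genes encode the machinery that separates chromosomes and cells, and their RNA rises with the share of cells in late cell cycle. In bulk RNA, fewer cells of a kind and less RNA per cell cannot be told apart. Of 49 measured mitosis genes, 0 were called, 47 were higher and 2 lower, with a median difference of 0.31 (0.03 over all genes). Over all 17720 genes, 10378 were higher and 7342 lower. Relative to each gene's mean over the 8 arrays, the list's median was 0.30 and 0.23 under VSG22, 0.11 and 0.01 under VSGC12, 0.05 and -0.04 under FF, -0.27 and -0.38 under Dex, and -1.93 on both EtoH arrays. The VSGC12 and FF arrays overlapped. Both VSG22 arrays were above, and both Dex arrays below, the rest. The list's median was 0.14 without Dex and 0.46 without FF, and 8 of the 49 genes have a probe in a patch.

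By compound pair, 47 of 49 mitosis genes were higher under VSG22 than under Dex (median 0.58, against 0.05 over all genes), 47 under VSGC12 than under Dex (0.38 against 0.02) and 46 under FF than under Dex (0.34 against 0.02). 46 were higher under VSG22 than under FF (0.25 against 0.04). For VSGC12 minus FF, 35 were higher with a median of 0.05, and for VSGC12 minus VSG22, 4 were higher with a median of -0.21. These pairs share arrays, and 0 genes were called in any of them.

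10 of the 49 mitosis genes had all VSG arrays above all clinical arrays, against 3.44% of all genes. Mki67, the gene of the proliferation marker Ki-67, stood at 3.06 and 3.04 under VSG22, 2.79 and 2.82 under VSGC12, 2.57 and 2.68 under FF, 2.53 and 2.38 under Dex, and 1.03 and 1.27 in EtoH. The 2 arrays of each compound lay together, in the order of the list. The difference was 0.39 ± 0.10 (adjusted p = 0.48 by limma), 0.30 without Dex. Ccnb2, for the mitotic cyclin B2, stood at 2.82 and 2.68, 2.61 and 2.49, 2.47 and 2.40, and 1.99 and 1.84 in the same order, with EtoH at -0.03 and -0.13. Its difference was 0.47 ± 0.16, and 0.21 without Dex. Cenpa, for the histone of the centromere, had a difference of 0.44 ± 0.10 (1.36-fold), and 0.29 without Dex. Kif11, a spindle motor gene, had the widest difference of the 10, 0.80 ± 0.24, with a probe in a patch, and 0.44 without Dex. The others were Anln and Cdc25c, each with a probe in a patch, and Cenpe, Ect2, Kif20b and Nuf2, between 0.21 and 0.43, and between 0.12 and 0.30 without Dex.

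**Figure D2:**
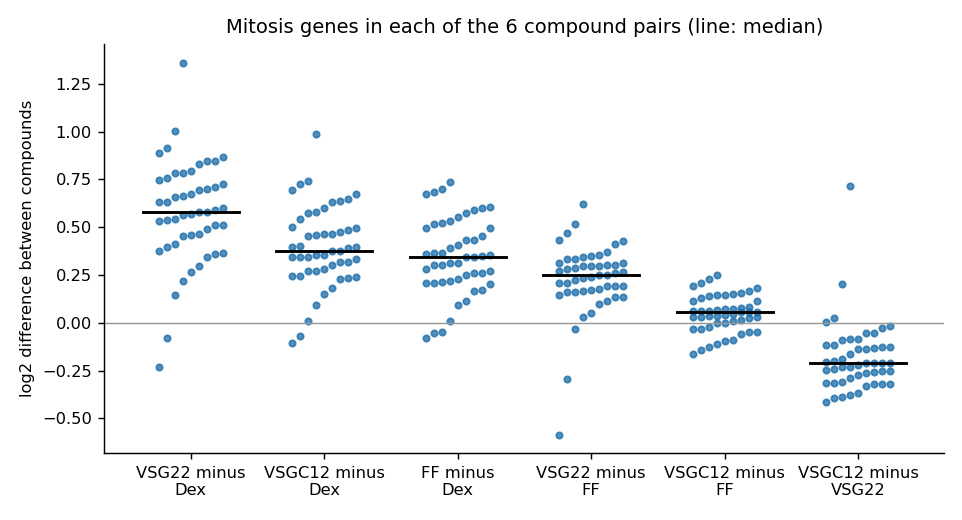
Difference of each of 49 mitosis genes (y axis, log2) in each of the 6 compound pairs; black lines are medians. The medians are 0.58, 0.38 and 0.34 for VSG22, VSGC12 and FF against Dex, and 0.05 for VSGC12 against FF.

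Promoters of these genes are shown because they share sequence elements known from cell-cycle genes, the CHR element TTTGAA, bound by the MuvB complexes, and the CCAAT box, bound by NF-Y. Each was searched on both strands, in windows from 250 bases before to 50 after the start site listed first in the RefSeq table of GRCm38.p6. Such a window was matched by symbol for 9777 of the genes tested. TTTGAA was found in 28 of 40 matched mitosis genes (70.0%), against 12.7% of the genes tested and 18.1% of all 27025 promoters. CCAAT was found in 28 of the 40 (70.0%), against 39.4% and 37.9%. In DNA replication genes the shares were 12.8% and 64.1%. A match is a description of the letters and not a binding site. Of the 9 mitosis genes without overlap that were matched, 7 held TTTGAA and 6 CCAAT. The 3 below, chosen for holding both, carry the matches in capitals.

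Mki67 (chr7:135716330-135716629, GRCm38.p6, minus strand): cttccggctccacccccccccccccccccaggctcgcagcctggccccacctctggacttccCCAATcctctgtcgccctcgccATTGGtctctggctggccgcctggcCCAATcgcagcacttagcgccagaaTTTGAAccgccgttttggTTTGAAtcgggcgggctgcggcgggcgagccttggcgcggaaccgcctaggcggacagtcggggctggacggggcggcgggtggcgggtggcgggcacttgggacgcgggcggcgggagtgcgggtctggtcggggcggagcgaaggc

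Ccnb2 (chr9:70421505-70421804, GRCm38.p6, minus strand): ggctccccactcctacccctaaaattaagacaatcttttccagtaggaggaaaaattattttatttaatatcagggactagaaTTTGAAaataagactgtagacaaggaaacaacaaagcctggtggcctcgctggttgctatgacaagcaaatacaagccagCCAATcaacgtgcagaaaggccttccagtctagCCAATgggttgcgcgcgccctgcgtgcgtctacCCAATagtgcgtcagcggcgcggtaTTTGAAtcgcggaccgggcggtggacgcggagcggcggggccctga

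Cenpa (chr5:30666636-30666935, GRCm38.p6, plus strand): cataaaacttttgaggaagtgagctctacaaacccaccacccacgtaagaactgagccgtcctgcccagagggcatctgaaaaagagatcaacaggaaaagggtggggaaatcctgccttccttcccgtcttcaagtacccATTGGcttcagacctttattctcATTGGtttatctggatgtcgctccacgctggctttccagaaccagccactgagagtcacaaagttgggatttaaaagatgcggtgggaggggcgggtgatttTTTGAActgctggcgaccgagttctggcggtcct

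DNA replication genes were also higher as a list. Of 47 measured, 0 were called, 44 were higher and 3 lower, with a median of 0.18, which was 0.09 without Dex and 0.26 without FF. For VSGC12 minus FF the median was 0.02. Prim1, for the primase subunit that starts DNA strands, stood at 2.89 to 3.19 in the VSG arrays, 2.41 to 2.80 in the clinical arrays, and 1.28 and 1.14 in EtoH (difference 0.37 ± 0.11). Gins1, of the replicative helicase, differed by 0.31, Rpa3, of the single-strand binding complex, by 0.19, and Pole2, a polymerase subunit, by 0.14, each without overlap. Without Dex these were 0.18, 0.10 and 0.07, and Prim1 0.26. Tyms, for thymidylate synthase, was the one member without overlap in the other direction, at -1.17 ± 0.33, and its probe is described with the repeats. Mcm8, a helicase gene outside the list, stood at -1.77 to -1.61 in the VSG arrays, -2.67 to -2.13 in the clinical arrays, and -4.22 and -4.09 in EtoH.

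Other lists differed by little. The median difference was 0.11 for 27 sterol synthesis genes, 23 of them higher, 0.08 for 20 receptor chaperones and cofactors, 0.04 for 35 NF-kB pathway genes and -0.06 for 21 macrophage identity genes. For lipid handling (36 genes) it was 0.03, for the respiratory chain (33) 0.05, for glycolysis and hypoxia (31) -0.05 and for lysosomal genes (33) -0.04. It was -0.01 for 22 phagocytic and alternative-activation genes, -0.03 for 23 antigen presentation genes and -0.02 for 25 oxidative stress genes. Within these lists, Fabp4, for a fatty acid carrier, stood at 6.91 to 7.21 in the VSG arrays, 6.57 to 6.86 in the clinical arrays, and 5.69 and 5.57 in EtoH. Clec10a, a lectin gene of alternative activation, stood at 1.15 to 1.37 against 0.84 to 1.04, and Icosl, a co-stimulatory ligand gene, at 1.89 to 2.06 against 1.5 to 1.83. Tnfaip3, for the NF-kB inhibitor A20, stood at 4.88 to 4.98 against 4.47 to 4.86. Hmox1, for haem oxygenase, stood at 5.90 to 6.01 against 6.07 to 6.38, with EtoH at 8.02 and 7.93. Each of these 5 had no overlap, and none was called. They were picked after their values were seen. Genes without overlap, higher and lower, numbered 2 and 0 in lipid handling and 2 and 0 in the NF-kB list. The counts were 1 and 0 in phagocytic genes, 1 and 1 in antigen presentation and 0 and 1 in oxidative stress. In the respiratory chain they were 4 and 0 of 33 genes, and in receptor chaperones and cofactors 2 and 0. Glycolysis and hypoxia had 1 and 2, and lysosomal genes 0 and 2. Macrophage identity genes had 1 and 1, and sterol synthesis genes 0 and 1. Of all genes, 3.44% were higher and 1.78% lower without overlap. Without Dex, the differences of Icosl, Tnfaip3 and Hmox1, 0.28, 0.24 and -0.29, were 0.15, 0.10 and -0.14.

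Small differences that were even across the arrays were among those with the lowest unadjusted p-values. Some wider differences were too, such as that of Mcm8 (0.65, unadjusted p = 0.0011 by limma). Tex9, which had the lowest among genes with a symbol, no patch and a signal well above background in both classes, stood at -0.39 to -0.32 in the VSG arrays and -0.71 to -0.66 in the clinical arrays, with EtoH at -1.06 and -1.30. Its difference was 0.32 ± 0.05 (1.25-fold; adjusted p = 0.48), 0.33 on slide 1 and 0.31 on slide 2. Rasgrp3, a Ras activator gene, stood at 2.15 to 2.23 against 1.83 to 1.92, with EtoH at 1.18 and 1.10. For both, leaving out Dex or FF moved the difference by little, to 0.33 and 0.31 for Tex9 and 0.28 and 0.34 for Rasgrp3. Hlcs, the biotin ligase gene, differed by 0.41, Hpdl by 0.37, Bbof1 by 0.38 and Nsd2, a histone methyltransferase gene, by 0.35. Baiap2l1 lay at -4.14 to -3.59 against -3.22 to -2.79, a wider difference of -0.80. It was well above background on 2 of the 4 VSG arrays and on all 4 clinical arrays, so its difference is approximate. It entered the test through the clinical arrays, and its direction was set in part by that. These genes were named after their values were seen. Their evenness across slides and compounds follows in part from that choice and is not a replication.

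Among genes without overlap or patch, with a symbol and a signal that passed the background test on 1 or more arrays of each class (420 higher and 159 lower), the 10 highest and 10 lowest differences are given. In 6 of the 10 highest, Dex replicate 1 was low. Hmgxb4, for an HMG-box protein, stood at 0.96 to 1.02 in the VSG arrays, 0.92 and 0.88 under FF, and -1.92 and -0.19 under Dex. Mllt11 stood at 4.0 to 4.09 in the VSG arrays, 4.0 and 3.93 under FF, and 0.62 and 3.61 under Dex. In both, FF lay next to the VSG arrays and Dex replicate 1 far below. The class differences of 1.06 and 0.99 became 0.40 and 0.17 without Dex replicate 1. Simc1 (0.95), Tmem177 (0.94), Tmem243 (0.92) and Secisbp2l (0.84) had the same pattern and became 0.48, 0.19, 0.23 and 0.36. Psd4 (0.97), BB287469 (0.89), Hp (0.83) and Nphs1 (0.83), the slit-diaphragm gene, completed the 10 and became 0.82, 0.87, 0.62 and 1.02. BB287469 and Nphs1 were well above background on 1 of the 4 clinical arrays, so their values there are near background and their differences approximate. Both entered the test through the VSG arrays, and their direction was set in part by that. Psd4, for an Arf exchange factor, stood at -1.99 and -1.93 under VSG22, -2.67 and -2.26 under VSGC12, -2.94 and -2.75 under FF, and -3.66 and -3.36 under Dex. None of the 10 was called, and their adjusted p-values ran from 0.48 to 0.58. A second Tmem177 probe, well above background on all 8 arrays, differed by 0.17. On it Dex replicate 1 was not low but the highest of the 8, at -1.37. The probe used above had it at -3.13 and was well above background on 7 of the 8 arrays.

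In the lower direction Dex replicate 2 was the highest of the 8 arrays in each of the 10 lowest, and both VSG22 arrays were the lowest in all of them but Srcin1. Pramel34, a gene of the Prame-like family, stood at 0.39 and 0.66 under VSG22, 3.32 and 3.38 under VSGC12, 3.46 and 3.49 under FF, 3.43 and 5.94 under Dex, and 1.81 and 2.18 in EtoH. VSGC12 lay with FF, and the class difference of -2.14 ± 0.92 (adjusted p = 0.48) rested on VSG22 and Dex replicate 2. Without Dex replicate 2 it was -1.54. A second Pramel34 probe was not well above background on any of the 8 arrays. Zfp366 (-1.72), Dupd1 (-1.54), Obp1a (-1.49), Trim71 (-1.36), Patj (-1.34), Srcin1 (-1.19), Adam18 (-1.18), Tyms (-1.17) and Oas1d (-1.16) followed, and without Dex replicate 2 they lay between -1.29 and -0.78. Obp1a, for an odorant-binding protein, and Adam18, known from testis, are genes of other tissues.

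**Figure D3:**
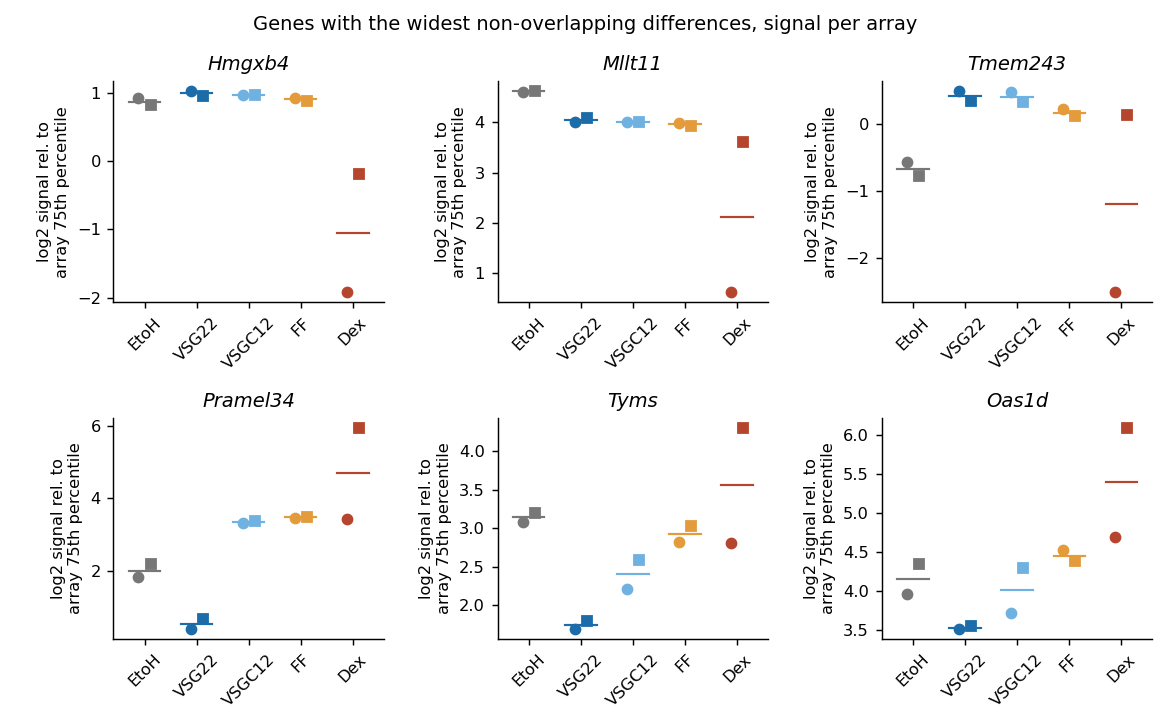
Level of 3 genes higher (upper row) and 3 lower (lower row) in the VSG arrays on each of the 10 arrays (y axis, log2 signal relative to the array's 75th percentile). Circles are slide 1, squares slide 2 and lines means of 2 arrays. In the upper row Dex replicate 1 lies lowest, at -1.92, 0.62 and -2.51, and in the lower row Dex replicate 2 lies highest, at 5.94, 4.31 and 6.10.

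Probes holding a run of alternating G and T were frequent among genes lower in the VSG arrays, and 5 of these 10 have one. The relevant 28 bases of each 60-base probe are shown with the run in capitals, so that the shared feature can be seen.

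Trim71 (probe at chr9:114421669-114421728, mm9, minus strand): gcaTGTGTGTGTctctcatttttgaatt

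Patj (probe at chr4:98164262-98164321, mm9, plus strand): gtcGTGTGTGTaacatttttctcctcac

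Adam18 (probe at chr8:25712756-25712815, mm9, minus strand): caaggaggaaGTGTGTGTtctaactgct

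Tyms (probe at chr5:30385578-30385637, mm9, minus strand): tcactgtaGTGTGTGTagcattctcccc

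Oas1d (probe at chr5:121371595-121371654, mm9, plus strand): acttagggGTGTGTGTGTatgagatttg

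The sequence GTGTGTG occurred, on the probe strand, in the representing probe of 413 of 17720 genes tested (2.33%). It occurred in 53 of the 312 genes with all VSG arrays below (17.0%), in 2 of the 604 with all above (0.331%), and in 45 of the 343 that were over 2-fold lower (13.1%). The median difference of genes with the sequence was -0.37, and of those without it 0.03. By the longest run, the median was 0.04 for 14874 genes with a run of up to 4 bases, -0.04 for 232 genes with 7, -0.48 for 150 genes with 8 or 9, -0.70 for 92 genes with 10 to 13, and -0.25 for 91 genes with 14 or more. The shares with all VSG arrays below were 1.45%, 4.35%, 14%, 27.8% and 3.3%.

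For runs of 8 bases or more the median was negative on both slides and lower on slide 2. For runs of 7 it was -0.01 on slide 1 and -0.06 on slide 2. For runs of 10 to 13 bases the median was -0.32 on slide 1 and -0.98 on slide 2, -0.37 without Dex and -0.93 without FF. The median level of these genes was 4.38 and 4.11 under VSG22, 4.79 and 4.89 under VSGC12, 4.87 and 5.01 under FF, 5.00 and 6.06 under Dex, and 4.54 and 4.80 in EtoH. VSG22 was lowest and Dex replicate 2 highest, and EtoH lay between them. For Trim71 and Patj, the other probes of the gene, which lack the run, were not well above background on any of the 8 arrays (1 and 4 probes), while the probe with the run was on all 8. Tyms, Adam18 and Oas1d have 1 probe each on the array. Whether the run has a part in these differences was not tested. Without such probes 0 genes were called, and 605 and 260 genes were without overlap in the higher and lower direction.

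**Figure D4:**
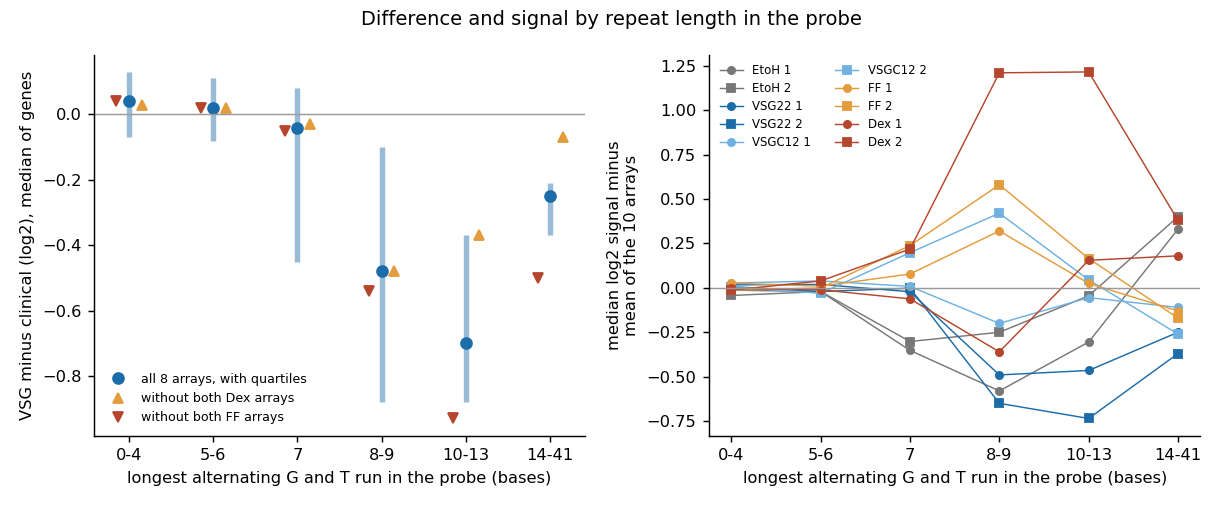
Left, median difference between VSG and clinical arrays (y axis, log2) for genes grouped by the longest alternating G and T run in the probe (x axis, bases), with quartiles as bars and medians without Dex or FF as triangles. Right, median level of the same genes on each array minus the mean of the 10 arrays (log2). For runs of 10 to 13 bases the median difference is -0.70, and Dex replicate 2 lies highest and VSG22 lowest.

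Of the 10 lowest, those without such a run were Pramel34, Zfp366, Dupd1, Obp1a and Srcin1. Srcin1 stood at -4.63 to -3.24 in the VSG arrays and -2.91 to -2.34 in the clinical arrays, with EtoH at -1.99 and -2.04. It was well above background on 3 of the 4 VSG arrays, so its difference is approximate. A second Srcin1 probe was not well above background on any of the 8 arrays. Dlk1, named after its values were seen as the tenth such gene without the run, stood at -3.71 to -3.23 in the VSG arrays, -1.99 and -2.05 under FF, -2.94 and -2.87 under Dex, and -4.94 and -4.30 in EtoH. It encodes a Notch-family ligand, and it was higher under FF than under the other compounds. Its difference was -0.95 ± 0.26 (adjusted p = 0.48), -1.39 against FF alone and -0.50 against Dex alone.

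Some genes were well above background in only 1 class, and their differences are bounds, set by the dimmest probe that passed the background test on each array of the dim class. Wnt8b, a Wnt ligand gene, was at least 2.37-fold higher in the VSG arrays, well above background on 3 of the 4 and on 0 of the clinical arrays. Its levels were -3.30 and -1.42 under VSG22 and -4.20 and -1.67 under VSGC12, higher on slide 2 in both. Olfr507, an olfactory receptor gene, was at least 1.55-fold lower, and Pard3, a cell polarity gene, at least 1.5-fold lower, both on 0 of the VSG arrays. Pard3 stood at -3.49 and -3.54 under FF and at -1.86 and -3.71 under Dex. Its bound, set by the class means, rested largely on Dex replicate 1. Rdh19 and Slc39a9 had bounds of 1.08 and 1.03. None of the 5 was called. They entered the test only through the class where they passed the background test, so their direction was set by that.

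Compared singly, the pair with the smallest share of genes over 2-fold was VSGC12 and FF, one from each class. The 6 pairs were compared at the same dose and time in one fit of the 4 compounds and slide, with p-values adjusted over all genes and the 6 pairs together, and 0 genes (0%) were called in each. Differences over 2-fold were found in 1.47% of genes for VSGC12 minus FF, 1.92% for VSGC12 minus VSG22, 3.43% for VSGC12 minus Dex, 3.46% for VSG22 minus FF, 3.61% for FF minus Dex and 5.33% for VSG22 minus Dex. Without genes in a patch the shares were 1.27%, 1.82%, 2.88%, 3.21%, 3.06% and 4.72%. The 95% interval lay within 2-fold either way for 85.0% of genes in VSGC12 minus FF and 81.9% in VSG22 minus Dex. At an unadjusted p under 0.05 there were 850, 1318, 2880, 1828, 2642 and 3402 genes, in the order of the first list, and the lowest adjusted p over the pairs was 0.087.

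Leaving out a Dex array changed these counts also in pairs without Dex, which share its estimate of spread. The cause was not tested. Without Dex replicate 1, 213 genes were called for VSG22 minus Dex, 105 for VSGC12 minus Dex, 88 for FF minus Dex, 61 for VSG22 minus FF, 19 for VSGC12 minus VSG22 and 8 for VSGC12 minus FF. Without Dex replicate 2 the counts were 88, 88, 100, 48, 16 and 7. In both cases the pair of VSGC12 and FF had the fewest. The remaining Dex array is then assumed to vary like the other groups. With arrays scaled by their median the counts were 225, 149, 168, 88, 51 and 32, again with VSGC12 minus FF the lowest. VSGC12 minus VSG22 had fewer than VSGC12 minus FF with quantile normalization (3 against 7), with no replicate block (0 against 2) and with all 10 arrays (0 against 1).

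Single genes followed that order in part. For Hp, VSG22 minus Dex was 1.27 (95% interval 1.02 to 1.52, adjusted p = 0.11 by limma) and VSGC12 minus Dex 1.32 (1.07 to 1.57, adjusted p = 0.11). FF minus Dex was 0.93 (0.67 to 1.18), VSGC12 minus FF 0.40 (0.14 to 0.65) and VSG22 minus FF 0.34 (0.09 to 0.60). For Il33, VSGC12 minus Dex was -1.40 (-2.05 to -0.75), VSG22 minus Dex -0.97 (-1.62 to -0.32) and VSGC12 minus VSG22 -0.43 (-1.08 to 0.22). For Ccnb2, VSG22 minus Dex was 0.83 (0.64 to 1.02), VSGC12 minus FF 0.11 (-0.08 to 0.30) and VSGC12 minus VSG22 -0.20 (-0.39 to -0.01). For Fkbp5, both VSG compounds lay within 0.06 of FF, with intervals of -0.39 to 0.27 for VSG22 and -0.27 to 0.39 for VSGC12. A p that misses the threshold does not show that compounds act alike, and the intervals are what the data allow.

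**Figure D5:**
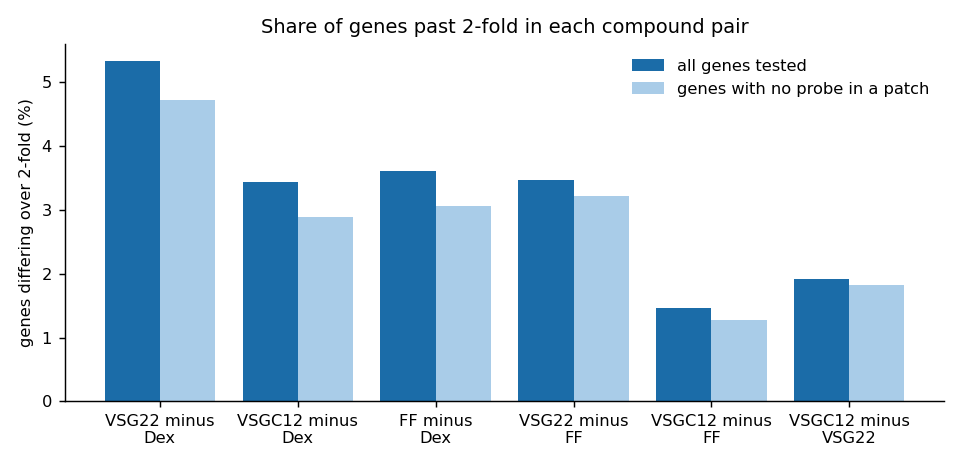
Share of genes (y axis, percent, from 0) that differ over 2-fold in each of the 6 compound pairs, for all genes tested and for genes with no probe in a patch. VSGC12 minus FF has the lowest share, 1.47%, and VSG22 minus Dex the highest, 5.33%.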

How the data were processed

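Each array's file is deposited Agilent Feature Extraction output (per the file headers) in the unit intensity, background-subtracted and not scaled between arrays. The submitters' processing notes list limma without naming its step. The log2 processed signals of 55681 probes that are not controls were averaged per probe, leaving out outlying spots, and each array's 75th percentile over its spots was subtracted. Probes were named through the mouse table of GRCm38.p6 (26525 by accession, 3786 by symbol, 716 by synonym; 24654 kept the file's name). A gene was represented by the brightest of its probes that passed the background test on both arrays of 1 or more compounds: 17723 genes, 162 with a missing value.

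Classes were compared with limma 3.58.1 (R 4.3.3; 5 residual and 1.84 prior degrees of freedom), with slide as a block. The headers give the slide, which holds every group. Deviations of arrays on a slide correlated with r from -0.04 to 0.35. Labelling started from 150 ng RNA. Named genes are the 10 highest and 10 lowest without overlap or patch, with a symbol and a signal that passed the background test on 1 or more arrays of each class, 13 genes named for any result, and list members without overlap and others, chosen after their values were seen. Scripts were tested on simulated data. The groups, the 35 gene lists and the members were chosen with earlier results of these data known, and promoter motifs and the probe repeat after values were seen.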

Additional observations from a re-analysis of the deposited data

Results flagged for a closer look

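In 80 named genes, 15 of 160 classes of 4 arrays had 1 array apart from the other 3, measured as its gap over the class's range. The cutoff is one that about 1 in 20 sets of 4 like values would pass. These genes were selected and each class holds 2 compounds, so the count cannot be set against that rate. The gap is relative and can be small, as for Mllt11, with VSG22 replicate 2 at 4.09 and the other VSG arrays at 4.0 to 4.01. Dex replicate 1 was low among the clinical arrays for Tmem243 (0.962), Tmem177 (0.923) and Mllt11 (0.884). Dex replicate 2 was high for Pramel34 (0.978), Dupd1 (0.936), Obp1a (0.913), Trim71 (0.874) and Tyms (0.852), and low for Fasn (0.844). Among the VSG arrays, VSG22 replicate 2 was apart for Mllt11 (0.957) and VSG22 replicate 1 for Socs2 (0.841). VSGC12 replicate 1 was apart for Il10 (0.915), Nos2 (0.893) and Ctrb1 (0.849), and VSGC12 replicate 2 for Il33 (0.883). 9 of the 15 were on a Dex array, and the cause was not tested.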

How the results depend on the processing

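The class comparison called 0 genes under each alternative scaling, filter, background correction, error term and left-out array, except 2 without both Dex arrays and 32 without both FF arrays. For the pairs VSG22 minus Dex, VSG22 minus FF, VSGC12 minus Dex, VSGC12 minus FF, VSGC12 minus VSG22 and FF minus Dex, 0 in each as reported, the counts were 225, 88, 149, 32, 51 and 168 with the array median, 19, 5, 18, 7, 3 and 19 with quantile normalization, 6, 1, 5, 2, 0 and 5 with no replicate block, 16, 1, 11, 1, 0 and 12 with all 10 arrays, and 11, 0, 0, 0, 0 and 6 when adjusted within each pair. Leaving out 1 array gave ranges of 0 to 213, 0 to 61, 0 to 105, 0 to 8, 0 to 19 and 0 to 100, above 0 only without a Dex array. The cause was not tested.

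Of 80 named genes, 74 kept their direction under every alternative run, and 20 of 2295 values were reversed. Without both Dex arrays Dusp1 was -0.11, Per1 -0.11 and Il6 0.0047. Without both FF arrays Nr3c1 was -0.017. Without both VSGC12 arrays Tsc22d3 was -0.074 and Dusp1 -0.048. On slide 2 alone Tsc22d3 was -0.025, Per1 -0.069 and Nr3c1 -0.015. Tsc22d3 was -0.068 with normexp, Socs2 -0.059 with the mean of probes and Per1 -0.062 with array weights. With 1 array left out, values ran from -0.033 to 0.045 for Tsc22d3, from -0.081 to 0.068 for Per1, from -0.067 to 0.194 for Dusp1 and from -0.019 to 0.074 for Nr3c1. Of these 80, Hp was the one called under an alternative, without both FF arrays; Gm3430, Gm4499, Gm1976, Gm3559 and Cbln2, called there too, are not among the 80. The mitosis median was 0.14 without Dex. Probe signals near background limit the low genes.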
